A study of Mus musculus with 15 samples.

Results

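The 9 transcripts described here encode signalling proteins that myoblasts can release and, in the case of Ptgs2, an enzyme that makes the precursor of prostaglandins. They were Ccl2 and Ccl7, Cxcl1, Cxcl5 and Cxcl12, Il6 and Lif, Csf1, and Ptgs2. For each symbol the probe set was used to which the platform annotation gave that single symbol. Each gene had 1 such probe set, so 9 of 25175 probe sets, or 9 of 19452 genes with a single symbol, were followed across all 15 arrays.

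In muscle, chemokines guide leukocytes to a site of injury by binding G protein-coupled receptors, and cytokines such as interleukin 6 and leukemia inhibitory factor act on the muscle precursor cells themselves through receptors that share the gp130 chain. Many messages of this kind are induced through NF-κB and are known in other cells for rapid turnover, in which proteins that bind AU-rich elements take part. An mRNA with a short half-life disappears soon after its transcription stops.

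The cells were proliferating C2C12 (LKO1) mouse myoblasts, a stable line derived from C2C12 that carries an empty lentivirus vector, grown in 10% serum with puromycin and kept sparse so that they would not differentiate. All groups received actinomycin D, which blocks transcription, at 8 µg/mL during 30 min of incubation, after which the sample named 0 min was collected. The groups differed in the time of collection, which was 0, 10, 50, 110 or 230 min, with 3 arrays at each time from 3 replicate time courses, and no untreated cells were among them. The study asked how fast mRNAs decay in muscle cells. The sources do not say whether the 3 time courses came from separate cultures, so the p-values rest on a spread between arrays that may be purely technical. With 3 arrays at a time, their number limits how precise any value can be.

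Values are linear ratios to the 5th percentile of each array. The dimmest probe sets therefore lie at about 1.00, and a probe set that starts near 1.00 has little room to fall. The array median ran from 2.42 to 2.74 at 0 min and from 1.44 to 1.72 at 230 min. The 110 min array of time course 1 (75th percentile 3.90, against 4.63 in the same course at 230 min) and the 230 min array of time course 2 (75th percentile 2.89) were low. At 0 min, all 10 myoblast markers examined were above the array median, against 1 of 13 markers of leukocytes (Cd68, mean 2.90) and 0 of 7 of endothelial cells. The markers of fibroblasts and adipocytes were above it in 4 of 10 cases and those of myotubes in 6 of 10. The summed level of the 13 leukocyte markers was 20.2 to 22.8 at 0 min and 15.5 to 16.7 at 230 min. In bulk RNA, fewer cells of a type and less RNA per cell cannot be told apart.

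Of the 9 transcripts, 6 were above the array median in all 3 arrays at 0 min. Cxcl5, Lif and Il6 were below it in all 3, so the description of these as cytokines of myoblasts is not borne out by the level of those probe sets. The 0 min arrays followed 30 min of actinomycin D, and no untreated cells were measured. A probe set value also depends on its probes, so these levels do not show that the transcripts were absent.

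The promoters of 6 of the 9 genes were in the RefSeq table (250 bases before to 50 after the transcription start, assembly GRCm38.p6), and their windows are shown because NF-κB and AP-1 are known inducers of several of these genes. Ccl2, Ccl7 and Cxcl5 had no entry. A match to the κB motif, the sequence bound by NF-κB, was found on either strand in Cxcl1, Il6 and Csf1, and in 4.51% of 32851 promoters. The windows below are written 5′ to 3′ on the strand of the gene, with the κB match in capitals.
Cxcl1, chr5:90891164-90891193, plus strand: cctgtactccGGGAATTTCCctggcccgga
Il6, chr5:30013060-30013089, plus strand: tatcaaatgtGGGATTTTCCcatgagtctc
Csf1, chr3:107760604-107760633, minus strand: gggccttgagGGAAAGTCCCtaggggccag

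The Cxcl1 promoter matched a second time, on the opposite strand and shifted by 1 base, and the Csf1 match was on the strand opposite to the gene. The AP-1 motif TGANTCA, read on either strand, was present in the promoters of Il6 and Lif and in 7.81% of all promoters. In the Lif window the capitals mark that motif.
Lif, chr11:4257330-4257359, plus strand: cagtcagctgTGACTCAggccatagtggct

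The motif TGACGTCA, at which CREB binds, was in 1.79% of all promoters and TATAAA in 13.6%, and neither was in these 6 windows. Cxcl12 and Ptgs2 had no match to any of the 4 motifs. The motifs were chosen after these promoters had been read, and a match is a description of letters, not of binding. In these cells the genes with a κB match had unlike values, as Il6 lay at the dimmest level of the arrays and Csf1 and Cxcl1 above the median.

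**Figure D1:**
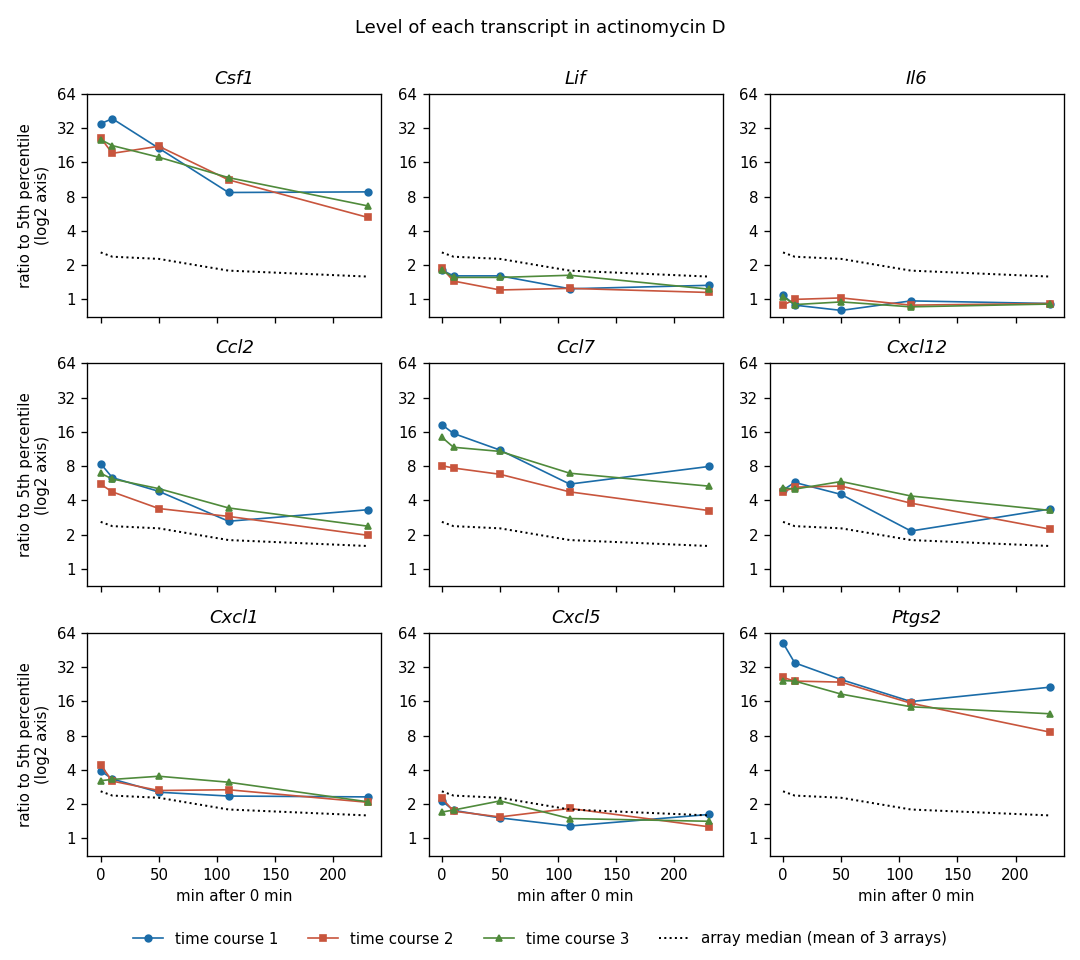
Level of each of the 9 transcripts as a ratio to the 5th percentile of its array (log2 axis) against minutes after 0 min, with 1 line for each of 3 time courses and the mean of the array medians dotted. Csf1 descends from 25.4 to 35.1 at 0 min to 5.25 to 8.82 at 230 min, and Il6 stays at 0.80 to 1.09 throughout.

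Over the whole time course, 8 of the 9 transcripts fell in the linear trend of log2 ratios against time (limma with the time course as a block, adjusted p under 0.05 over all probe sets), and 0 rose. The exception was Il6. The same trend fell for 75.8% of all 25175 probe sets and rose for 0.302%, so the share of the 9 that fell was near the background. Among the 12544 probe sets above the array median at 0 min, 6 of the 6 members and 96.4% of all fell. The median slope of the 9 was -0.24 log2 per hr, against -0.14 for all probe sets and -0.25 for those above the array median. In this trend 7 of the 9 fell when time course 2 was left out (56% of all probe sets fell), when time course 3 was (63.4%) and when the 2 low arrays named above were (67%).

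Csf1, the growth factor on which macrophages depend, had the steepest slope. Its ratios were 35.1, 26.3 and 25.4 in time courses 1, 2 and 3 at 0 min, 38.8, 19.3 and 22.5 at 10 min, 21.3, 22.2 and 17.8 at 50 min, 8.71, 11.3 and 11.8 at 110 min, and 8.82, 5.25 and 6.63 at 230 min. All arrays at 110 and 230 min lay below all arrays of the earlier times. At 230 min 23.7% ± 3.30 (SD, n = 3) of the 0 min ratio remained. The slope was -0.56 log2 per hr (SE 0.0553, limma adjusted p = 1.9e-06), and 1.55% of all probe sets, or 3.11% of those above the array median, were steeper.

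Ccl2, or monocyte chemoattractant protein 1, read 8.40, 5.54 and 6.91 at 0 min, 6.34, 4.75 and 6.17 at 10 min, 4.80, 3.39 and 5.07 at 50 min, 2.62, 2.89 and 3.43 at 110 min, and 3.31, 1.97 and 2.37 at 230 min. The arrays at 0 and 230 min did not overlap, and 36.4% ± 2.66 (SD, n = 3) remained. The slope was -0.37 log2 per hr (SE 0.0483, limma adjusted p = 1.7e-05), with 9.15% of all probe sets, or 18.4% of those above the array median, steeper.

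Ccl7, a further ligand of Ccr2, lies next to Ccl2 on chromosome 11, with 0 annotated genes between them. Its ratios were 18.5, 8.07 and 14.4 at 0 min, 15.5, 7.70 and 11.7 at 10 min, 11.1, 6.78 and 10.8 at 50 min, 5.56, 4.75 and 6.93 at 110 min, and 7.95, 3.25 and 5.33 at 230 min. Time course 2 was the lowest at every time, and its 0 min array (8.07) was close to the 230 min array of time course 1 (7.95), although within each course the level fell. On average 40.1% ± 2.90 (SD, n = 3) remained. The slope of Ccl7 was -0.35 log2 per hr (SE 0.0515, limma adjusted p = 4.7e-05). Slopes of Ccl2 and Ccl7 differed by 0.01, 0.01 and 0.04 log2 per hr in the 3 courses, with Ccl2 the steeper in each. Over the 15 arrays their log2 ratios had a Pearson r of 0.946, and of 0.886 with each array divided by its median. The arrays share their cells and their scaling, so these are descriptions.

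Ptgs2 makes the precursor of all prostaglandins and is the inducible form of cyclooxygenase. Its ratios were 52.1, 26.0 and 24.3 at 0 min, 34.9, 24.1 and 24.1 at 10 min, 24.8, 23.6 and 18.5 at 50 min, 15.9, 15.4 and 14.3 at 110 min, and 21.3, 8.56 and 12.4 at 230 min. Time course 1 was high at 0 min and again at 230 min, where it exceeded its own 110 min array. At 230 min all 3 arrays were below those at 0 min, and 41.7% ± 9.07 (SD, n = 3) remained. The slope was -0.33 log2 per hr (SE 0.0544, limma adjusted p = 0.00013), and the call held when the 0 min array of time course 1 was left out.

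Cxcl12, which retains and guides cells that bear Cxcr4, was still at its 0 min level at 50 min. It read 4.93, 4.74 and 5.16 at 0 min, 5.75, 5.23 and 5.02 at 10 min, 4.51, 5.34 and 5.86 at 50 min, 2.15, 3.78 and 4.37 at 110 min, and 3.36, 2.23 and 3.26 at 230 min. The arrays up to 50 min overlapped, and all those at 110 and 230 min were below them. On average 59.5% ± 11.0 (SD, n = 3) remained, with a slope of -0.24 log2 per hr (SE 0.0517, limma adjusted p = 0.00091).

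Cxcl1, a neutrophil chemoattractant, read 3.91, 4.41 and 3.21 at 0 min, 3.32, 3.18 and 3.29 at 10 min, 2.54, 2.63 and 3.51 at 50 min, 2.35, 2.67 and 3.11 at 110 min, and 2.31, 2.07 and 2.09 at 230 min. The 0 and 230 min arrays did not overlap. The slope was -0.19 log2 per hr (SE 0.0352, limma adjusted p = 0.00035). Steeper slopes were found in 39.3% of all probe sets and in 76.4% of those above the array median.

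Cxcl5 and Lif started below the array median. Cxcl5, which lies on chromosome 5 with Cxcl1 and is separated from it by 4 coding genes (Ppbp, Pf4, Cxcl3 and Cxcl15), read 2.13, 2.26 and 1.70 at 0 min and 1.62, 1.26 and 1.41 at 230 min. Lif, the cytokine that keeps mouse embryonic stem cells from differentiating, read 1.81, 1.89 and 1.80 at 0 min and 1.33, 1.15 and 1.23 at 230 min. Slopes were -0.11 log2 per hr for Cxcl5 (SE 0.0382, limma adjusted p = 0.016) and -0.12 for Lif (SE 0.0299, limma adjusted p = 0.0027). In neither gene did the 0 and 230 min arrays overlap. The call on Cxcl5 was lost in 5 alternatives that kept the scaling, each of which left out a time course, a time or the 2 low arrays.

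Il6, a cytokine that contracting muscle is known to release, was at the level of the dimmest probe sets in every array. It read 1.09, 0.89 and 1.06 at 0 min and 0.92, 0.92 and 0.91 at 230 min, and lay between the 1.86 and 9.45 percentile of its arrays at 0 min. The slope was -0.02 log2 per hr (SE 0.0259, limma adjusted p = 0.44). At this level a decay was not detectable, and no half-life is given.

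Differences in slope between transcripts within 1 time course do not depend on dividing an array by a single value. Of 36 pairs among the 9 transcripts, 33 stood in the same order in all 3 courses. With 3 courses an exact sign-flip permutation test cannot go below a two-sided p of 0.25, which those 33 pairs had before any adjustment. Csf1 was steeper than each of the other 8 in all 3 courses, by 0.19 ± 0.08 log2 per hr against Ccl2 and by 0.23 ± 0.07 against Ptgs2 (SD, n = 3 courses). The 3 pairs whose order varied were Ccl2 and Ptgs2, Ccl7 and Ptgs2, and Lif and Cxcl5, which thus did not differ beyond their spread. Transcripts near 1.00, above all Il6, could not have a steep slope on this scale. The order is that of the deposited ratios, from which no background was subtracted.

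The calls depended on the scaling. With each array divided by its median, the median slope of all probe sets moved from -0.14 to 0.04 log2 per hr. Against that measure 4 of the 9 transcripts fell, where 21.4% of all probe sets did, and 2 rose, where 40.3% did. Those that fell were Csf1 at -0.38 log2 per hr (SE 0.0410, limma adjusted p = 1.4e-06), Ccl2 at -0.18 (SE 0.0349, adjusted p = 0.00022), Ccl7 at -0.16 (SE 0.0379, adjusted p = 0.0011) and Ptgs2 at -0.14 (SE 0.0439, adjusted p = 0.0084). Cxcl5, at 0.07, and Il6, at 0.16, rose relative to the array median, although their ratios to the 5th percentile did not. A ratio that stays near the 5th percentile rises when divided by a falling median, as that of Il6 did. The call on Cxcl5 was lost without time course 1, 2 or 3 (limma adjusted p = 0.15, 0.063 and 0.13), and that on Ptgs2 without time course 2 (slope -0.10, adjusted p = 0.076). The slopes of Cxcl12 (-0.06), Cxcl1 (-0.00490) and Lif (0.06) did not pass. The shares given under this scaling are of all probe sets, not of those at a like level.

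When arrays were instead divided by their 75th percentile, Csf1 alone fell, at -0.24 log2 per hr (limma adjusted p = 4.0e-06), where 7.56% of all probe sets fell. Cxcl1, Cxcl5, Cxcl12, Il6 and Lif rose on that scale, 5 of 9 against 74.1% of all probe sets. After quantile normalization Csf1 fell, at -0.28 log2 per hr, and Cxcl1 rose, at 0.09, among 3177 probe sets that fell and 3899 that rose. Csf1 was called as fallen under all 15 alternatives of the trend, with adjusted p from 2.2e-15 to 0.00061. The calls on Ccl2, Ccl7 and Ptgs2 were lost under the 75th percentile and quantile scalings, with adjusted p from 0.12 to 0.85, and held under the other 13.

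**Figure D2:**
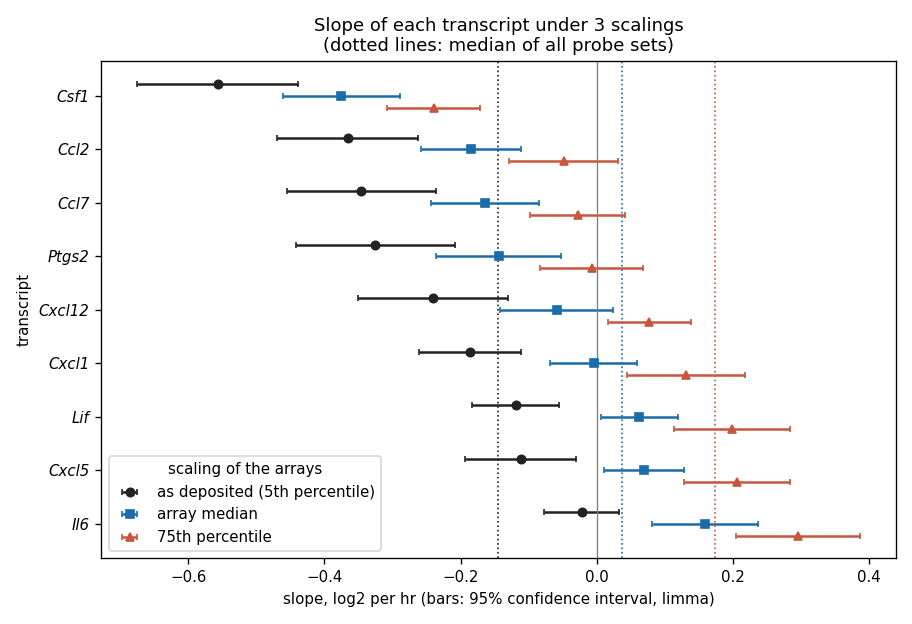
Slope of each transcript in log2 per hr with its 95% confidence interval from limma, under 3 scalings of the arrays, and the median slope of all probe sets under each as a dotted line. Csf1 is below 0 under each scaling, whereas Cxcl5 runs from -0.11 as deposited to 0.21 with the 75th percentile.

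The rank of a probe set within its array is free of any such division. Csf1 moved from the 91.8 to 92.8 percentile at 0 min to the 82.8 to 85.7 percentile at 230 min, and the ranges over 3 arrays did not overlap. Lif (35.6 to 39.8, then 25.7 to 34.1) and Il6 (1.86 to 9.45, then 0.268 to 0.975) also ranked lower in all 3 arrays at 230 min. These 3 of 9 compare with 13.5% of all probe sets. Cxcl12 ranked higher, at the 61.7 to 66.3 percentile at 0 min and the 68.8 to 70.9 at 230 min, as 16.1% of all probe sets did. For Ccl2, Ccl7, Cxcl1, Cxcl5 and Ptgs2 the ranges overlapped. The rank and the ratio to the array median thus gave opposite directions for Il6 and Lif, whose ratios lie where the values of many dim probe sets are close together.

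Between successive times, which were unevenly spaced, the falls of the 9 transcripts that passed with all arrays lay between 50 and 110 min. From 0 to 10 min 0 of 9 transcripts and 0 of 25175 probe sets passed (0% by limma, 630 at an unadjusted p under 0.05), and from 10 to 50 min 0 of 9, against 0.0278% of all (922 probe sets at an unadjusted p under 0.05). From 50 to 110 min 4 of 9 fell, against 35.8% of all. The log2 differences were -0.96 for Csf1 (SE 0.223, limma adjusted p = 0.0091), -0.71 for Ccl7 (SE 0.174, adjusted p = 0.011), -0.56 for Ccl2 (SE 0.156, adjusted p = 0.019) and -0.66 for Cxcl12 (SE 0.216, adjusted p = 0.033), and Ptgs2 at -0.54 (SE 0.216, adjusted p = 0.068) did not pass. From 110 to 230 min 0 of 9 passed, against 0.0119% of all (2837 probe sets at an unadjusted p under 0.05). When time course 1 was left out, 4 of 9 fell in this last step, against 18.4% of all. Between 0 and 230 min directly, 8 of 9 fell, against 68.8% of all. The unadjusted p of the step from 10 to 50 min was 0.028 for Ccl2, which was at -0.39 log2.

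The step from 50 to 110 min moved with the arrays. In time course 1 the 110 min values of Csf1, Ccl2, Ccl7, Cxcl12, Ptgs2, Cxcl5 and Lif were below those at 230 min, and this array was also low over all probe sets. Without that array and the 230 min array of time course 2, 2 of 9 transcripts fell between 50 and 110 min (24.8% of all probe sets did), and without time course 3 0 of 9 did by limma (3.73% of all, and 9103 probe sets at an unadjusted p under 0.05). With each array divided by its median 1 of 9 fell (7% of all), and with the 75th percentile 0 fell and 4 rose (48.7% of all rose). The part of the array in this step was not tested further.

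Half-lives were fitted as a single exponential in each time course. The fitted values were 66.6, 112 and 110 min for Csf1 in time courses 1, 2 and 3, a mean of 96.5 ± 25.9 min (SD, n = 3). Ccl2 had 112, 138 and 134 min (128 ± 14.2), Ccl7 113, 166 and 147 min (142 ± 26.6) and Ptgs2 115, 152 and 197 min (155 ± 41.3). These 4 ranges overlapped their neighbours, and Csf1 was shorter than Ccl2, and Ccl2 than Ccl7, in all 3 courses. Ptgs2 and Cxcl12 did not overlap, with 212, 217 and 356 min for Cxcl12 (262 ± 81.5). These values rested on the scaling and the model. With each array divided by its median the means were 150 min for Csf1, 283 for Ccl2, 322 for Ccl7 and 400 for Ptgs2. With the 75th percentile Csf1 was at 235 min, while Ccl2 and Ccl7 showed a decay in 2 courses and Ptgs2 in 1. With a constant floor in the model the means were 78.6 min for Csf1, 46.4 for Ccl2, 73.7 for Ccl7 and 71.4 for Ptgs2. Without the 3 arrays that stand apart Ptgs2 was at 235 ± 91.6 min.

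A half-life was called reliable when the decay had a two-sided p under 0.05 and the 95% confidence interval was narrower than 2 times the half-life, in at least 2 of 3 courses. Of the 9 transcripts, Ccl7 and Ptgs2 met this. The intervals for Ccl7 ran from 131 to 217 min in time course 2 and from 81.3 to 335 min in time course 3. Those for Ptgs2 ran from 98.0 to 267 min and from 109 to 499 min in the same courses. Csf1 and Ccl2 met it in time course 3 only, with intervals from 87.6 to 142 min and from 94.4 to 202 min. Cxcl1 (307 ± 88.0 min), Lif (475 ± 94.4 min) and Cxcl5 (533 ± 132 min) met it in 0 of 3 courses, and none of their 9 intervals had an upper bound. The time course, at 230 min, was shorter than these half-lives.

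The low probe sets changed most with the treatment of background. After 1 was subtracted from each ratio, the half-lives were 86.2 ± 13.1 min for Ccl2, 89.6 ± 23.8 for Csf1, 117 ± 82.0 for Lif, 119 ± 20.7 for Ccl7, 145 ± 38.7 for Ptgs2, 183 ± 58.2 for Cxcl5, 189 ± 73.4 for Cxcl1 and 196 ± 73.7 for Cxcl12 (SD, n = 3 courses). Lif thus moved from 475 to 117 min and Cxcl5 from 533 to 183 min, whereas Csf1 and Ptgs2, far above 1.00, moved by less than their SD. Ccl2 moved from 128 to 86.2 min, by more than its SD (14.2 min). Its mean was then below that of Csf1 (89.6 min), as it also was with a constant floor in the model. Whether 1.00 is the background of these probe sets cannot be read from the values.

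**Figure D3:**
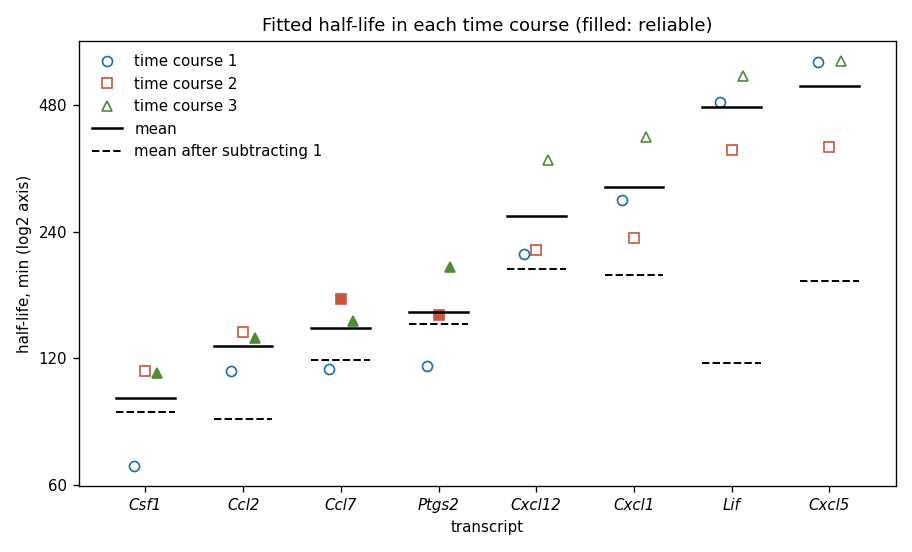
Fitted half-life in minutes (log2 axis) in each of 3 time courses for 8 transcripts, filled where reliable, with the mean as a solid bar and the mean after subtracting 1 from each ratio as a dashed bar. The bars nearly coincide for Csf1 (96.5 and 89.6 min) and lie far apart for Lif (475 and 117 min).

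The receptors of these ligands were partly present. Of 18 listed, 17 had a probe set and 7 were above the array median at 0 min, while Ccr2 (mean 1.03), Cxcr2 (1.06) and Csf1r (1.58), the receptors of the monocyte and neutrophil chemokines and of Csf1, were not. In the trend 10 of 17 fell, 0 rose and 7 did not pass (median slope -0.08 log2 per hr), but 5 fell and 10 rose relative to the array median (all probe sets: 75.8% fell in the trend, and 21.4% fell and 40.3% rose relative to the median). The 10 that rose were all below the array median at 0 min, and a ratio near the 5th percentile rises when divided by a falling median. Il6st, the shared gp130 chain, fell from 25.1 ± 3.37 to 14.2 ± 4.14 (SD, n = 3 arrays, slope -0.24) and Lifr, the Lif receptor, from 14.5 ± 2.04 to 6.99 ± 1.23 (slope -0.29). Cxcr4, the receptor of Cxcl12, fell from 6.98 ± 0.948 to 1.40 ± 0.131 (slope -0.63, limma adjusted p = 2.2e-06), and Ptger4, a prostaglandin E2 receptor, from 7.43 ± 0.725 to 1.81 ± 0.0586 (slope -0.52, adjusted p = 8.5e-06). The fitted slopes of both receptors were steeper than those of the ligand Cxcl12 (-0.24) and the enzyme Ptgs2 (-0.33), a difference that was not tested. Il6ra and Ptger1 fell at -0.25 and -0.18 log2 per hr.

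Among 37 other cytokines and chemokines, 8 were above the array median. In the trend 24 fell, 0 rose and 13 did not pass, with a median slope of -0.07, where 75.8% of all probe sets fell. Relative to the array median 2 fell and 27 rose, where 21.4% and 40.3% of all probe sets did. Most of these genes were dim, and a ratio near the 5th percentile rises when divided by a falling median. How far the scaling set these rises was not tested. The 6 highest at 0 min were Clcf1, a cytokine of the Il6 family, Cx3cl1, Ccl9, Il34, the other ligand of Csf1r, Il1rn, an antagonist of interleukin 1, and Ccl25. Clcf1 fell from 7.39 ± 1.47 to 2.58 ± 0.552 (slope -0.39) and Il34 from 4.84 ± 0.847 to 1.68 ± 0.0600 (slope -0.40), whereas the others fell at -0.16 to -0.23 log2 per hr. Cxcl2 and Cxcl3, chemokines related to Cxcl1, were at 1.30 and 1.45 at 0 min and did not pass the trend.

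Of 9 genes of prostaglandin and thromboxane metabolism, all 9 fell, with a median slope of -0.16, where 75.8% of all probe sets did. Pla2g4a, the phospholipase that frees arachidonic acid for Ptgs2, fell from 16.5 ± 2.70 to 8.61 ± 2.28 (slope -0.26). The synthases Ptges3 (-0.16), Ptges2 (-0.33) and Ptgis (-0.18) fell as well. With each array divided by its median, 1 of these 9 fell and 2 rose, and with the 75th percentile 0 fell and 7 rose, where 74.1% of all probe sets rose.

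All 18 measured genes of NF-κB and gp130 signalling fell, with a median slope of -0.31. Of these 17 were above the array median, where 96.4% of probe sets fell, so the count was near that share. On the other scales 12 of 18 fell with each array divided by its median (21.4% of all probe sets), and 4 fell and 6 rose with the 75th percentile (7.56% and 74.1% of all). The shares among probe sets above the array median were not computed on these scales, so these counts have no background at a like level. Of the 6 highest, Cebpb, a transcription factor active at the Il6 promoter, fell at -0.57 log2 per hr (limma adjusted p = 3.3e-06) and Nfkbia, the inhibitor of NF-κB that NF-κB itself induces, at -0.56 (adjusted p = 0.00016). Jak1 (-0.20), Nfkb2 (-0.34), Stat3 (-0.26) and Jak2 (-0.30) fell as well. The slope of Csf1, -0.56, was close in size to those of Cebpb and Nfkbia, although the course of Nfkbia differed from that of Csf1. Mean ratios of Nfkbia were 8.75 at 0 min, 3.16 at 50 min, 1.86 at 110 min and 1.80 at 230 min. Those of Csf1 were 28.9, 20.4, 10.6 and 6.90 at the same times.

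The 18 factors that act in the decay of cytokine mRNAs were all above the array median and all fell, as 96.4% of the probe sets above it did, with a median slope of -0.24, equal after rounding to that of the 9 transcripts. Zfp36l2, a protein that binds AU-rich elements and promotes decay, fell from 28.4 ± 5.23 at 0 min to 4.29 ± 1.48 at 230 min (SD, n = 3 arrays, slope -0.71, limma adjusted p = 1.3e-06). Hnrnpd (-0.23), Elavl1 (-0.27), Cnot1 (-0.37), Celf1 (-0.23) and Khsrp (-0.16) fell as well. With each array divided by its median 6 of 18 fell, and with the 75th percentile 1 fell and 10 rose, where 21.4% of all fell under the median scaling and 74.1% rose under the 75th percentile. The shares among probe sets above the array median were not computed on these scales.

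**Figure D4:**
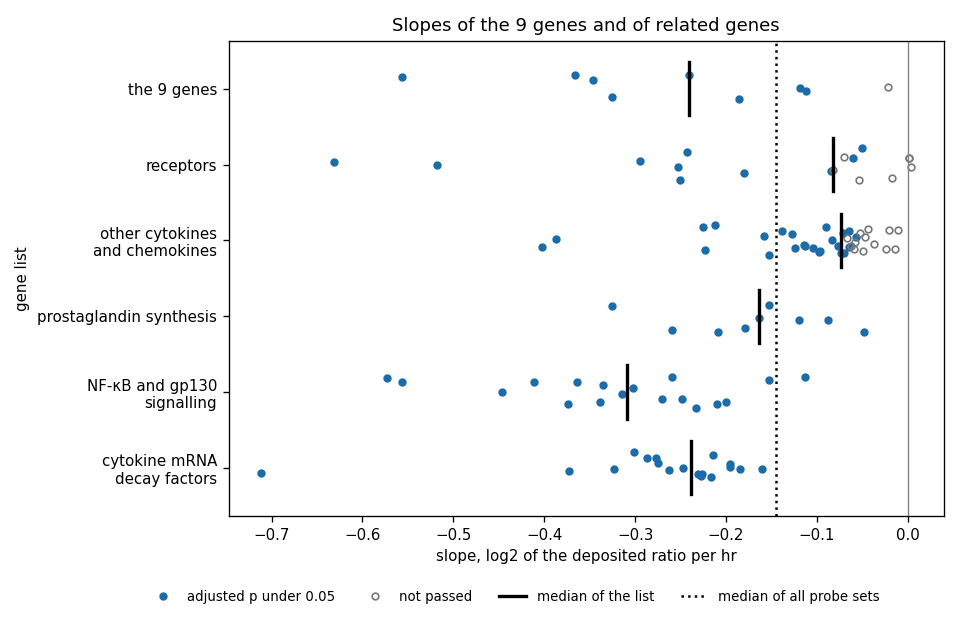
Slope in log2 of the deposited ratio per hr of the 9 transcripts and of the measured genes of 5 related lists, filled where the limma adjusted p was under 0.05, with the median of each list as a bar and that of all probe sets (-0.14) dotted. All points of the NF-κB and gp130 list and of the decay factors lie below 0, and many receptors and other cytokines lie near 0.

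The genes whose pattern was most like that of each transcript were sought among 9878 genes above the array median, by the Pearson correlation over 15 arrays of log2 values with each array divided by its median. They were Mark2 and Ccm2 for Csf1 (both r = 0.97), Spryd4 (r = 0.96) and Ssh2 (r = 0.95) for Ccl2, Dhx33 and Sdad1 for Ccl7 (both r = 0.97), Hif1a (r = 0.96) and Sel1l (r = 0.90) for Cxcl12, and Slc19a2 (r = 0.92) and Esrra (r = 0.91) for Ptgs2. For Cxcl1 the highest were Rasl11b (r = 0.69) and Homez (r = 0.63), so no gene followed it closely. The arrays share their time points, and these correlations are descriptions of 15 values.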

How the data were processed

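Total RNA of 15 samples was hybridized to Affymetrix Mouse Gene 1.0 ST arrays, 1 per sample. Before deposit the authors normalized every array to its own 5th percentile, and the values are this linear ratio. How probes were summarised, and with which software, is not given in the sources used here. The probe sets carry 21044 single gene symbols, 1492 several and 2639 none. Ptgs1, Nfkb1 and Chuk were not analysed here, and 1 further listed gene is not reported here. Promoters came from RefSeq (GRCm38.p6).

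Slopes of log2 ratios in time, with no pseudocount, and steps between times were fitted over all 25175 probe sets with limma 3.58.1 (R 4.3.3), moderated by eBayes. The time course was a block and p-values were adjusted after Benjamini-Hochberg, with calls at 0.05. The study fitted each numbered time course by itself, which is where the pairing comes from. Deviations from the time means correlated over 0.1 in 29 of 30 same-numbered array pairs among probe sets above the array median (18 of 30 among all), against 14 of 60 other pairs. Half-lives were fitted by nonlinear least squares with scipy 1.17.1 (Python 3.11.15, numpy 2.4.6, pandas 2.3.3, matplotlib 3.10.9), with profile intervals. The code was tested on simulated data.

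The members and gene lists were chosen with earlier results of these data known. Named were all 9 members, up to 6 genes of each list that were above the array median, by level at 0 min, and the 2 genes most like each of the 6 members above the array median. Genes named outside that rule (Ccr2, Cxcr2, Csf1r, Cxcl2 and Cxcl3) were chosen after their values were seen. Alternatives covered the scaling, level filter, pseudocount, block, variance trend, decay model, times and replicates.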

Additional observations from a re-analysis of the deposited data

How the results depend on the processing

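Counts of transcripts under alternatives not named here stayed within 1.5 times. The count that fell in the trend, 8 of 9, was 4 with each array divided by its median, 1 with the 75th percentile and 1 with quantile normalization, and the count that rose was 2, 5 and 1. Without the replicate block 8 fell, and without each time course in turn 7 to 8 fell. Slopes turned positive with the median scaling for Cxcl5 (0.0694), Il6 (0.16) and Lif (0.0624), with the 75th percentile for Cxcl1 (0.13), Cxcl5 (0.21), Cxcl12 (0.0770), Il6 (0.30) and Lif (0.20), and with quantile normalization for Cxcl1 (0.0896), Cxcl5 (0.0182) and Cxcl12 (0.0671). Relative to the array median, the slope of Cxcl1 ran from -0.0117 to 0.00285 when a time course was left out, and 1 transcript rose in place of 2 in each of these fits. The fall between 50 and 110 min, 4 of 9, was 1 with the median, 0 with the 75th percentile and with quantile normalization, 2 with no replicate block, 2 without the 110 min array of time course 1 and the 230 min array of time course 2 (added after the data were seen), and 0 to 3 without each time course in turn. Of all probe sets 2.18% fell in that step with quantile normalization and 27.9% with no replicate block. Without time courses 1, 2 and 3 in turn 19.1%, 28.9% and 3.73% of all fell in it. With the 75th percentile 4 rose in that step, where 0 did as deposited. The log2 differences turned positive for Ccl2 (0.14 with the 75th percentile, 0.0361 with quantile), Cxcl12 (0.0343 with the 75th percentile) and Ptgs2 (0.16 and 0.14). Between 110 and 230 min 0 fell, and 1 without the 2 arrays, where 3.4% of all probe sets fell. When time course 1 was left out 4 fell (18.4% of all), and without time course 2 or 3 0 fell (0% of all). Between 0 and 230 min 8 fell, 4 with the median, 1 with the 75th percentile and 3 with quantile normalization, and 1, 5 and 1 rose in place of 0. Of all probe sets 16.9%, 6.94% and 10.9% fell on these scales, and 35.8%, 70.4% and 11.8% rose. Reliable half-lives, 2 of 9, were 0 with either scaling and with 0 min left out, and 1 with 230 min left out. They were 1 without 3 arrays that stand apart (added after the data were seen), and 0 to 2 without each time course in turn. With the log2 line and the constant floor no interval was computed, so the criterion for a reliable half-life was not applied there. The median half-life of the 6 transcripts above the array median, 2.47 hr, was 6.01 hr with the median scaling. With the 75th percentile only 4 of these 6 had a decay in any course, and their median was 20.0 hr. The median of the 6 was 3.05 hr with the log2 line and 1.27 hr with the floor. It was 3.02 hr without 0 min, 1.94 hr without 230 min and 3.44 hr without the 3 arrays. The causes of these differences were not tested. Each transcript had a single probe set, so no other could be tried, and the half-life of Il6 gave no interpretable value. The 5th percentile bounds what low probe sets can show.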
